A study of Homo sapiens with 8 samples.

Results

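Sustained gains beside existing day 0 peaks are regions of chromatin that were called accessible on days 1, 3 and 7 of SMARCB1 induction, were not called on day 0, and lie close to a place that was already called on day 0. To find them, the 4 deposited peak lists were merged wherever peaks overlapped by at least 1 bp. A member has a peak in each of the day 1, 3 and 7 lists, none in the day 0 list, and less than 2000 bp between its nearest edge and a day 0 peak. There were 2870 members among 146099 merged regions, and they made up 15.0% (14.5 to 15.6) of the 19074 sustained gains. The other 16204 sustained gains lay at least 2000 bp from any day 0 peak and are called distant gains here. The members were chosen by the presence of peaks on days 1, 3 and 7, the absence of one on day 0 and the distance, so their heights on days 1, 3 and 7 are given as a description.

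SMARCB1 is a core subunit of SWI/SNF, a complex that uses ATP to slide and evict nucleosomes and so opens enhancers. Most rhabdoid tumours lack it. ATAC-seq reads out open chromatin with a transposase that cuts and tags accessible DNA, so a peak marks a stretch such as an active promoter or enhancer. Transcription factors of the AP-1 family, named in the title of the series, bind enhancers and can recruit SWI/SNF to closed sites. Open elements often lie side by side within 1 enhancer or promoter, with nucleosomes between them, and a gain next to an open element is therefore a different setting from a gain in closed chromatin.

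All samples are of G401, a human cell line established from a kidney rhabdoid tumour, here carrying a stable doxycycline-inducible SMARCB1 and kept in Tet-free serum. The induced groups received doxycycline at 1 µg/ml for 1, 3 or 7 days and are labelled SMARCB1 +/+, and the day 0 group is labelled SMARCB1 -/-. Each of the 4 groups has 2 replicates of 100000 cells. The deposited file gives a single list for each day, with 80744, 109876, 117606 and 103182 peaks on days 0, 1, 3 and 7. The names of 3 lists carry a day, and the remaining list was assigned to day 0 by elimination, so the members depend on that assignment. The lists hold no expression values, and the SMARCB1 labels were not checked here. With 1 list per day no difference has a replicate error or a test. Bracketed ranges are 95% intervals that cover the counting of regions or reads only. The labels do not say whether the inducible line is a single clone.

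Heights are given on 2 scales. The scaled summit is the number of reads at the highest summit of a region divided by the genome-wide background of its list, which was 6.34, 6.04, 6.73 and 6.10 reads on days 0, 1, 3 and 7. The fold is the authors' value and sets the same summit against the local background of the same list. The local background is an average over the surroundings, so an open neighbour raises it and lowers the fold.

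Members were fewest right beside the day 0 peak and most frequent somewhat farther out. The gap ranged from 17 to 1999 bp with a median of 960 bp, and the middle part of the members, between the quartiles, lay from 560 to 1444 bp. Only 50 members (1.74%) lay within 100 bp of the day 0 peak. The densest band was 750 to 1000 bp, with 443 members, against 298 between 1750 and 2000 bp. In bands of 250 bp from 0 to 1000 bp there were 237, 383, 428 and 443 members. All regions without a day 0 peak numbered 1537, 1825, 1669 and 1642 in these bands, with the most from 250 to 500 bp. By the rule, an induced peak that reached the day 0 peak was merged with it and could not be a member. The part of this in the low numbers at short gaps was not tested. The nearest day 0 peak was on the side of lower coordinates for 47.2% of members (45.4 to 49.1). A day 0 peak stood within 2000 bp on both sides of 145 members (5.05%). Nearly every member stood alone beside its neighbour: 2769 of 2819 neighbouring day 0 regions were the nearest of 1 member, 49 of 2 members and 1 of 3 members. In 95.2% of members each induced list held exactly 1 peak.

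**Figure D1:**
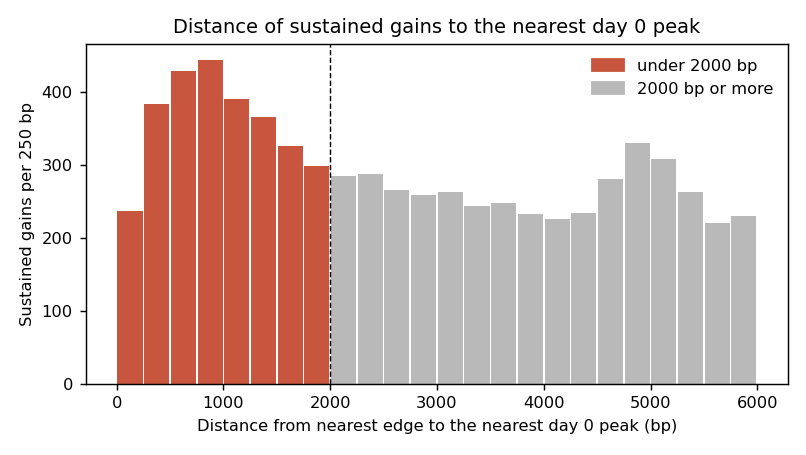
Number of sustained gains (vertical axis, per 250 bp) by the distance in bp from their nearest edge to the nearest day 0 peak (horizontal axis), with members in red and distant gains in grey. Members were most frequent at 750 to 1000 bp, where there were 443, and a second rise in the distant gains reached 330 between 4750 and 5000 bp. All regions without a day 0 peak, not drawn here, had a rise at that distance too.

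Sustained gains were not the class of new region most often found beside a day 0 peak. Of all 67520 regions without a day 0 peak, 17.6% (17.3 to 17.9) lay under 2000 bp from a day 0 peak, above the 15.0% of sustained gains. The share was 21.9% (21.1 to 22.7) of regions called on day 1 alone and 23.2% (21.3 to 25.2) of regions called on days 1 and 7. It was lowest, at 13.1% (12.3 to 14.0), in regions called on days 3 and 7. Each of the classes with a day 1 peak, apart from the sustained gains, had a higher share than the classes first called on day 3 or 7.

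Chromosomes dense in day 0 peaks had a higher share of their sustained gains beside one. On chromosome 19, with 69.1 day 0 peaks per Mb, 103 of 357 sustained gains were members, or 28.9% (24.2 to 33.9). Chromosome 22 followed with 23.9% (19.5 to 28.7) at 58.6 peaks per Mb. At the other end of the autosomes chromosome 13 had 60 members of 561 sustained gains, or 10.7% (8.26 to 13.6), at 18.6 peaks per Mb, and chromosome 4 had 11.2% (9.36 to 13.3) at 18.2 peaks per Mb.

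Members had taller summits than distant gains and lower folds. Their median scaled summit was 8.44, 9.07 and 7.54 on days 1, 3 and 7, against 6.29, 7.88 and 6.23 in distant gains. In reads, the median member summit held 51, 61 and 46 on days 1, 3 and 7, and the median distant gain held 38, 53 and 38. The order turned on the fold scale, with medians of 3.12, 3.31 and 3.00 in members and 3.98, 4.51 and 3.93 in distant gains. The local background was a median of 2.45, 2.48 and 2.25 times the genome-wide background at members, against 1.30, 1.50 and 1.36 times at distant gains. A fold of at least 6 on any induced day was reached by 170 members (5.92%, 5.09 to 6.85), against 4372 distant gains (27.0%, 26.3 to 27.7). Peaks of members were also narrower, with median called widths of 419, 489 and 384 bp on days 1, 3 and 7, against 465, 579 and 457 bp. A call needs more reads where the local background is higher, and the part of this in the taller summits of members was not tested. By the rule, the peaks of a member also cannot reach the day 0 peak beside it. The part of this limit and of the local background in the narrower widths was not tested.

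**Figure D2:**
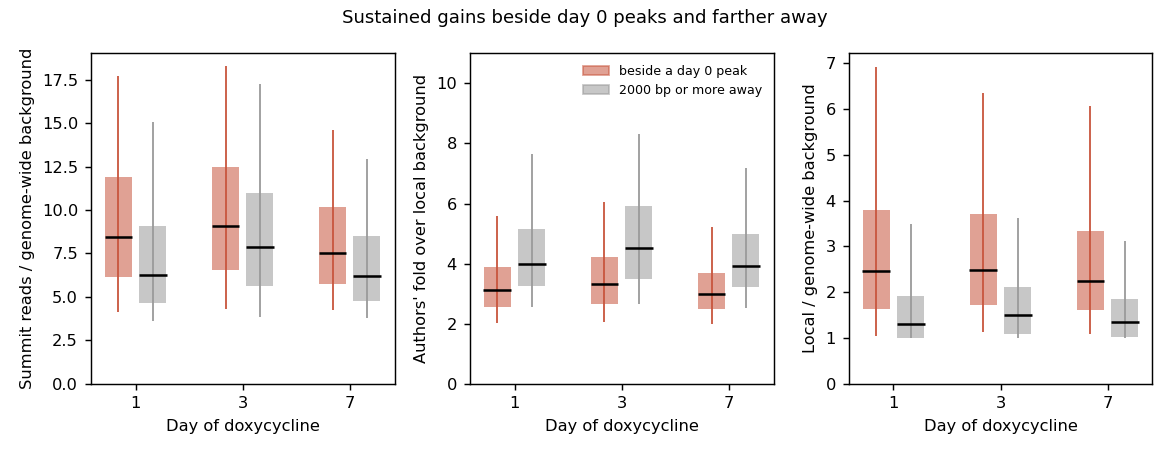
Scaled summit, fold over local background and local over genome-wide background (vertical axes, no unit) on days 1, 3 and 7, for members in red and distant gains in grey. Boxes span the quartiles over regions, black lines are medians and thin lines run from the 5th to the 95th percentile, and members stand higher on the first scale and lower on the second.

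Members closest to the day 0 peak had lower summits than those farther out. Those under 500 bp away had a median scaled summit of 7.94, 8.47 and 7.13 on days 1, 3 and 7, against 8.94, 9.52 and 7.70 for those 1000 to 1500 bp away. Their folds were 3.02, 3.14 and 2.94, against 3.18, 3.35 and 2.98. Between 1500 and 2000 bp the median folds were 3.22, 3.49 and 3.13, the highest of the 4 bands. Values just inside and just outside the limit overlapped. The member at chromosome 12, 75555137 to 75555611, lay 1999 bp from its day 0 peak and held 28, 26 and 23 reads on days 1, 3 and 7. Others just inside were chromosome 2, 54746723 to 54747650, at 1999 bp with 54, 57 and 38 reads, and chromosome 9, 80969555 to 80970535, at 1995 bp with 51, 53 and 30 reads. Just outside, chromosome 7, 151409362 to 151409999, lay at 2001 bp with 57, 53 and 54 reads. Next came chromosome 2, 42785924 to 42786434, at 2002 bp with 40, 50 and 35 reads, and chromosome 1, 205630527 to 205631029, at 2003 bp with 54, 60 and 53 reads.

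Members differed less between days 1 and 3 than distant gains did. The median log2 step in scaled summit from day 1 to day 3 was 0.04 in members (SD over regions 0.34) and 0.21 in distant gains (SD 0.39). From day 3 to day 7 the median steps were -0.22 in members (SD 0.34) and -0.29 in distant gains (SD 0.37), so both groups were lower on day 7. By fold the groups were closer. The median log2 step in fold from day 1 to day 3 was 0.06 in members and 0.11 in distant gains, and from day 3 to day 7 it was -0.13 and -0.17. By scaled summit, day 1 was the highest of the 3 days in 38.5% of members (36.8 to 40.3), against 23.5% of distant gains (22.9 to 24.2). Day 3 was the highest in 48.4% (46.6 to 50.2), against 60.3% (59.6 to 61.1), and day 7 in 13.1% (11.9 to 14.4), against 16.1% (15.6 to 16.7).

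The difference in timing was also seen among gains of like height. All sustained gains were split into 3 classes of equal size by mean scaled summit, a split added after seeing the data. Day 3 was highest in 36.3% of members of the lowest class (32.3 to 40.5), against 46.9% of distant gains (45.6 to 48.2). In the middle class the shares were 52.5% (49.2 to 55.7) and 63.7% (62.4 to 65.0), and in the highest class 50.4% (47.8 to 53.1) and 72.3% (71.1 to 73.6). The members nearest to a day 0 peak were the least often highest on day 3, at 41.5% (37.5 to 45.4) under 500 bp and 52.9% (48.9 to 56.9) from 1500 to 2000 bp. These shares depend on how the days are put on 1 scale. With each list centred on the regions present in all 4 lists, day 3 was highest in 66.3% of members and 72.8% of distant gains. Measured by fold, the shares were 48.9% and 52.6%. With induced peaks of a fold of at least 4 alone, which left 339 members, they were 74.6% (69.6 to 79.2) and 76.4%, a difference within counting error. The differences under these 3 settings were smaller than on the scaled summits.

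How much lower than these summits day 0 could have been was bounded by the call limit of the day 0 list. At the local background of the neighbouring day 0 peak, a summit needed a median of 27 reads (quartiles 21 and 39) to reach the smallest -log10 p in that list. The neighbour's background stood in for the member's own, since on days 1, 3 and 7 the ratio of member to neighbour background had a median of 1.00 and lay between 0.843 and 1.16 in the middle 90% of day 3 pairs. Brought to the depth of day 0, the summits of members were a median of 1.69, 1.83 and 1.53 times that limit on days 1, 3 and 7. In 2717 members (94.7%) the summits of all 3 days were at or over the limit, and in 534 (18.6%) they were at least 2 times the limit. The first of these shares largely follows from the rule, since members were called on all 3 days. The smallest -log10 p was 3.72, 3.64 and 3.88 in the lists of days 1, 3 and 7, against 4.25 on day 0. Day by day, at least 2 times the limit was reached by 34.0%, 42.6% and 25.7% of members on days 1, 3 and 7. For the rest of each day's members the lists leave room for a day 0 summit within 2-fold of the induced one. A peak must also span 200 bp to be called, so a narrow day 0 summit over the limit could have been left out.

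**Figure D3:**
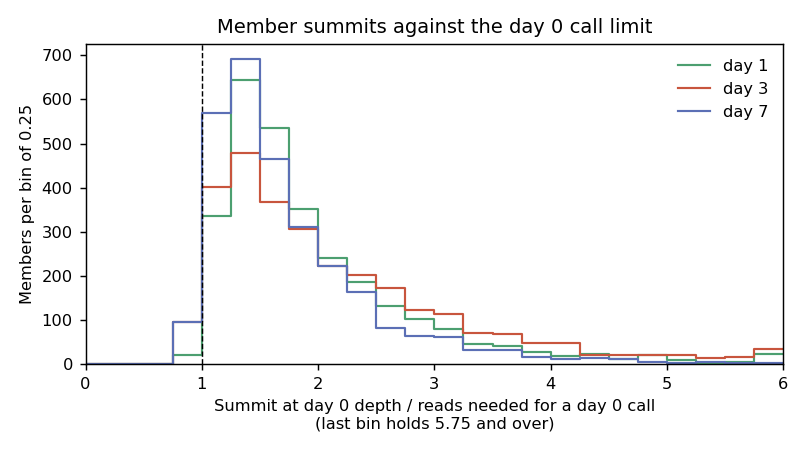
Number of members (vertical axis, per bin of 0.25) by the ratio of their summit, brought to day 0 depth, to the reads a day 0 summit needed for a call (horizontal axis), on days 1, 3 and 7. The dashed line marks a ratio of 1, and the medians lie at 1.69, 1.83 and 1.53 on days 1, 3 and 7.

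The 10 members with the highest lowest-of-3 folds, named by that ranking, lay 80 to 1409 bp from a day 0 peak of 21 to 42 reads, against a median of 57 over all day 0 peaks. The ranking favours places of low local background, and so of few reads nearby. The first, at chromosome 4, 89713012 to 89714347 (hg19, as are all positions here), held 97, 144 and 85 summit reads on days 1, 3 and 7, with folds of 9.50, 9.22 and 8.96. Its neighbour, 219 bp away at 89712556 to 89712792, held 26 reads on day 0 and was called on no induced day. At chromosome 7, 91806530 to 91807254, the summits held 90, 124 and 91 reads, while the neighbour 915 bp away held 40 on day 0 and 29 on day 1 and was not called later. At chromosome 4, 18045587 to 18046301, they held 94, 136 and 89 reads, and there the neighbour 914 bp away was kept, with 31, 52, 63 and 51 reads on days 0, 1, 3 and 7.

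Further members of this ranking repeated both patterns. Chromosome 10, 111210251 to 111211015, had 68, 97 and 74 reads beside a neighbour of 30 reads on day 0 and 25 on day 1, which was not called on days 3 and 7. Chromosome 17, 9304695 to 9305384, had 63, 90 and 75 reads beside a neighbour kept at 42, 44, 48 and 34 reads on days 0, 1, 3 and 7. Chromosome 10, 53004092 to 53005110, had 116, 125 and 102 reads, and its neighbour was called on day 0 with 40 reads and again on day 7 with 42. The remaining ones stood beside day 0 peaks that no induced list held. They were chromosome 2, 59983112 to 59983834, with 52, 75 and 63 reads, chromosome 1, 234819571 to 234820485, with 73, 98 and 66, chromosome 1, 203166568 to 203167357, with 68, 107 and 86, and chromosome 2, 73247655 to 73248921, with 147, 160 and 110. Their neighbours held 21, 25, 25 and 22 reads on day 0 in the same order. Of the 10, day 3 was the highest by scaled summit in 8, the neighbour was called on no induced day in 5, on some in 3 and on all in 2. Over all members, day 3 was the highest in 48.4%, and the neighbour was called on no induced day for 12.8% and on all for 69.5%. Of all day 0 regions, 7.92% were called on no induced day and 77.4% on all.

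The 5 members with the smallest gaps, 17 to 29 bp, differed among themselves in fold and in whether the neighbour was kept. At chromosome 19, 3055372 to 3055953, the gap was 17 bp and the summits held 87, 91 and 80 reads with folds of 1.74, 1.95 and 1.85, while the neighbour held 91, 90 and 84 reads on days 0, 1 and 3. At chromosome 18, 2909100 to 2909688, 24 bp from its neighbour, the member held 33, 40 and 37 reads and the neighbour, with 32 reads on day 0, was not called again. At chromosome 20, 17862369 to 17863420, with a gap of 25 bp, the member held 79, 90 and 56 reads with folds of 4.01, 4.35 and 3.48. Its neighbour held 31 reads on day 0 and had no later call. At chromosome 1, 68269475 to 68270292, with a gap of 26 bp, the member held 56, 81 and 53 reads with folds of 5.57, 5.63 and 4.75, and the neighbour 25, 49, 51 and 38 reads on days 0, 1, 3 and 7. At chromosome 2, 73955916 to 73956492, with a gap of 29 bp, member and neighbour were alike, at 26, 27 and 25 reads for the member and 26, 28 and 30 for the neighbour on the same days. Whether such close members are new summits or moved edges of 1 accessible stretch was not tested.

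The day 0 peaks beside members were weaker than other day 0 regions. Their median scaled summit on day 0 was 7.41, against 8.99 in the other 75760 day 0 regions, and their median fold was 3.40 against 3.85. The median called width was 419 bp against 466 bp. They were also kept less often: 1965 of 2819 (69.7%, 68.0 to 71.4) had a peak on all 3 induced days, against 77.6% (77.3 to 77.9) of other day 0 regions, with 77.4% over all day 0 regions. No induced list held 352 of them (12.5%, 11.3 to 13.8), against 7.75% (7.57 to 7.95) of other day 0 regions.

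The difference was seen among weak day 0 regions when 4 classes of about equal size, cut by day 0 scaled summit after seeing the data, were compared. In the lowest class 41.0% of neighbours (37.7 to 44.3) and 45.9% of other regions (45.2 to 46.6) were kept on all induced days. In the next class the shares were 69.5% (66.2 to 72.6) and 78.0% (77.4 to 78.6). They were 89.4% in both groups in the class above it, and 99.5% and 98.8% in the highest.

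Neighbours of members with high folds were more often missing from every induced list. With members cut into 3 classes by their lowest fold, that share was 6.79% (5.28 to 8.58) in the lowest class, 11.8% (9.86 to 14.0) in the middle and 19.9% (17.4 to 22.6) in the highest. The day 0 height of the neighbours moved with it, with median scaled summits of 12.3, 6.62 and 5.52 in these classes, and its part in the shares was not tested. The classes are not independent of the neighbour, whose reads enter the local background of the member. The local background moved too. At neighbours missing on day 3 the background at the member was a median of 1.19 times that of day 0, in units of the genome-wide background. With their day 0 summit unchanged, 139 of these 600 neighbours (23.2%, 19.8 to 26.8) would have fallen under the day 3 call limit at that background. For days 1 and 7 the numbers were 138 of 531 (26.0%) and 118 of 665 (17.7%).

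Neighbours that were kept stood higher relative to day 0 than other day 0 regions did, on each induced day, when measured by scaled summits. Their scaled summits differed from those of day 0 by a median log2 of 0.17, 0.04 and 0.03 on days 1, 3 and 7 (SD 0.45, 0.52 and 0.42), against 0.07, -0.08 and -0.04 in other day 0 regions. Regions not called on a day are left out of that day's values. Neighbours were left out more often, with 69.7% kept on all induced days against 77.6% of other day 0 regions. The part of these losses in the differences was not tested. At least 2-fold higher summits were found at 172 of 2288 neighbours on day 1 (7.52%, 6.47 to 8.68), where the share over all day 0 regions was 3.48%. The counts were 181 of 2219 on day 3 (8.16%, 7.05 to 9.37), with 3.66% over all, and 108 of 2154 on day 7 (5.01%, 4.13 to 6.02), with 2.1% over all. Summits at least 2-fold lower were seen at 0, 1 and 0 neighbours on days 1, 3 and 7, with 0.0146%, 0.0686% and 0.0585% over all. These counts cannot be set against the 2-fold higher ones, since a region that fell under the call limit is missing from them.

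On the fold scale the 2-fold shares of neighbours were close to those of all day 0 regions, and their median change was lower than that of other day 0 regions. A fold at least 2 times that of day 0 was reached by 1.22% of them on day 1 (0.815 to 1.76), 1.13% on day 3 (0.730 to 1.66) and 0.418% on day 7 (0.191 to 0.792). Over all day 0 regions these shares were 0.899%, 0.966% and 0.428%. The median log2 fold change was -0.018, -0.086 and -0.043 on days 1, 3 and 7, against 0.07, 0.02 and 0.03 in other day 0 regions. The local background of the neighbours, which takes in the reads of the new member, had a median log2 change of 0.22, 0.20 and 0.12, against 0.00, -0.04 and -0.04 elsewhere. All these comparisons share the day 0 list and leave out regions that were not called on the induced day.

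The 2-fold higher summits were at weak neighbours, with 113 and 62 of the 181 on day 3 in the lower classes of day 0 height. In the lowest class, 22.5% of neighbours (18.9 to 26.4) were at least 2-fold higher on day 3, against 10.2% of other day 0 regions (9.65 to 10.7). In the next class it was 9.37% (7.26 to 11.8) against 5.11% (4.77 to 5.47). In the class above, 6 of 635 neighbours reached it (0.945%), against 1.02% of other regions. In the highest class 0 of 420 neighbours did, with an upper bound of 0.874%, against 0 of 19076 other regions. These shares are over regions called on day 3. The classes were cut by day 0 height, which is also the denominator of the ratio. A low day 0 value thus favours a high ratio, and its part in the lower shares of the higher classes was not tested.

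The share of 2-fold higher summits was highest within 1000 bp of a sustained gain and lowest beyond 200000 bp, without an even order between. The shares are over day 0 regions that were called on the induced day. Those less than 500 bp from a sustained gain were at least 2-fold higher on day 3 in 10.1% of cases (7.87 to 12.8), and those 500 to 1000 bp away in 9.73% (7.65 to 12.2). The share was 5.87% (4.58 to 7.40) from 1000 to 2000 bp, 7.30% (6.44 to 8.23) from 2000 to 5000 bp and 6.06% (5.49 to 6.66) from 5000 to 10000 bp. Farther out it was 3.95% (3.73 to 4.18) from 10000 to 50000 bp, 2.15% (1.96 to 2.36) from 50000 to 200000 bp and 0.936% (0.708 to 1.21) beyond 200000 bp. Shares above the 3.66% of all day 0 regions reached well past 2000 bp, so they were not particular to the neighbours of members. By fold the share was lowest beyond 200000 bp too, but on day 3 it was alike under 500 bp and from 5000 to 10000 bp. On day 1 it was highest under 500 bp, at 1.74%, and on day 7 from 500 to 1000 bp, at 0.576%. At least 2 times the day 0 fold was reached on day 3 by 1.45% of day 0 regions under 500 bp, 1.13% from 500 to 1000 bp, 0.789% from 1000 to 2000 bp and 0.827% from 2000 to 5000 bp. It was reached by 1.46% from 5000 to 10000 bp, 1.11% from 10000 to 50000 bp, 0.782% from 50000 to 200000 bp and 0.384% beyond 200000 bp. The median day 0 scaled summit of these regions also differed, at 7.80 under 500 bp, 11.2 from 10000 to 50000 bp and 7.25 beyond 200000 bp, and its part in the shares was not tested.

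**Figure D4:**
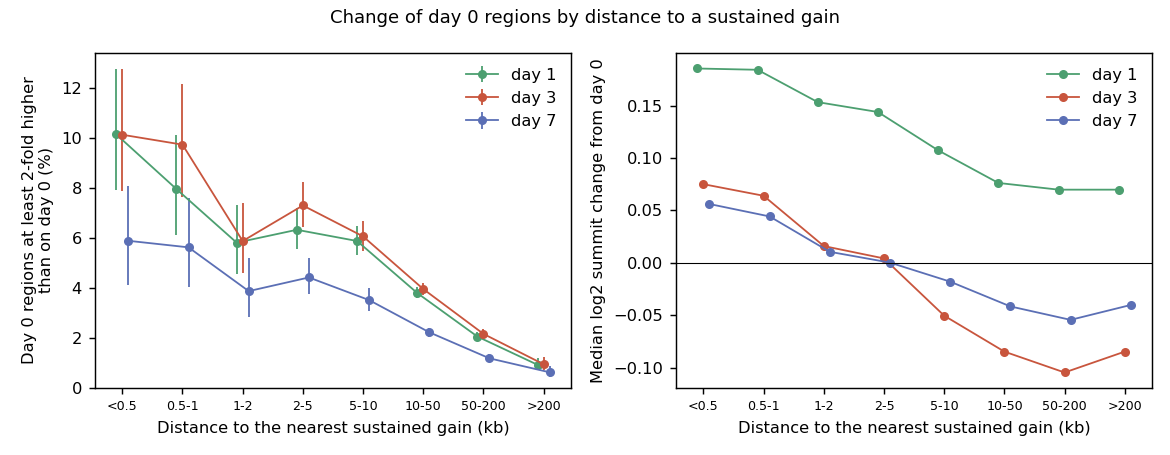
Left, percent of day 0 regions called on the induced day with a scaled summit at least 2-fold higher than on day 0 (bars: 95% intervals). Right, the median log2 change of day 0 regions called on that day. Both are by distance in kb to the nearest sustained gain, for days 1, 3 and 7. On day 3 the percent was 10.1 under 0.5 kb and 0.936 beyond 200 kb.

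The neighbours with the highest ratio of day 3 to day 0 were named for it, so their ratios are a description. Beside the member at chromosome 2, 28903988 to 28904461, the neighbour at 28905922 to 28906627 held 22, 75, 150 and 100 reads on days 0, 1, 3 and 7. That is 6.43-fold higher on day 3 after scaling (4.09 to 10.6), or a fold of 5.95 on day 3 against 2.72 on day 0. The member, 1677 bp away, held 35, 84 and 51 reads on days 1, 3 and 7 and was highest on the same day. At chromosome 14, 71220124 to 71220853, the member held 76, 96 and 52 reads and its neighbour 21, 97, 137 and 110 on days 0, 1, 3 and 7, or 6.15-fold on day 3 (3.87 to 10.3). At chromosome 10, 28732969 to 28733456, the member held 67, 85 and 47 reads and the neighbour 28, 148, 173 and 112, or 5.83-fold (3.89 to 9.03).

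In the other pair of this ranking member and neighbour also held the most reads on day 3, but after scaling the neighbour on chromosome 12 was slightly higher on day 1. At chromosome 5, 78220706 to 78221510, the member held 81, 95 and 80 reads and the neighbour 22, 101, 135 and 110 on days 0, 1, 3 and 7, or 5.79-fold on day 3 (3.67 to 9.54). At chromosome 12, 95009092 to 95009931, the member held 38, 55 and 43 reads and the neighbour 23, 127, 140 and 91, or 5.80-fold on day 1 and 5.74-fold on day 3 (3.68 to 9.35). In each of these 5 places the local background of the neighbour was also higher on day 3 than on day 0, for example 24.4 reads on day 3 against 7.5 on day 0 at the first.

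Where member and neighbour were both called, the member was the lower of the pair more often than not. The member's summit held more reads than the neighbour's in 28.0% of pairs on day 1 (26.2 to 29.8), 37.1% on day 3 (35.1 to 39.1) and 25.3% on day 7 (23.5 to 27.2). The median ratio of member to neighbour reads was 0.784, 0.872 and 0.778 on days 1, 3 and 7. At least 2 times the neighbour's reads were seen at 42 of 2320, 67 of 2250 and 24 of 2186 members on those days. The neighbour had no peak beside a further 550 members on day 1 (19.2%), 620 on day 3 (21.6%) and 684 on day 7 (23.8%), which are not in these shares.

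Members and neighbours resembled each other weakly in how they changed between days. Across 1994 pairs with a neighbour called on all days, the log2 steps from day 1 to day 3 had a Pearson's r of 0.26 and a Spearman's rho of 0.24, and those from day 3 to day 7 an r of 0.25 and a rho of 0.24. Under 500 bp r was 0.36 and 0.29 for these steps over 430 pairs. From 1000 to 2000 bp it was 0.22 and 0.24 over 955 pairs. Distant gains 2000 to 5000 bp from their nearest day 0 peak had lower values, 0.20 and 0.16 over 2193 pairs. Those 10000 to 50000 bp away had 0.05 and 0.06 over 5658 pairs. A weaker likeness was thus also seen in distant gains, and it was not particular to members. The points of a pair share libraries and surroundings, and summits less than 400 bp apart can share reads. The median step from day 1 to day 3 was 0.03 in these members and -0.12 in their neighbours.

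Day 0 regions with more than 1 member were rare. The one with 3 members lay at chromosome 20, 48015404 to 48015680, where the day 0 peak held 33 reads and was called on no later day. Its members were at 48013949 to 48014593 with 97, 133 and 83 reads on days 1, 3 and 7, at 48016744 to 48017235 with 47, 50 and 39 reads, and at 48017526 to 48017913 with 56, 70 and 48 reads. At chromosome 11, a day 0 peak of 26 reads at 27232868 to 27233259 was likewise not called again, between members at 27231019 to 27231610, with 90, 137 and 102 reads, and at 27234699 to 27235309, with 54, 106 and 63. At both places the induced lists held peaks on each side of the day 0 position and none at it.

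The other 3 named places with 2 members kept their day 0 region. At chromosome 18, the region at 20775787 to 20776769 held 25, 126, 143 and 86 reads on days 0, 1, 3 and 7, or 5.39-fold on day 3 (3.51 to 8.61). Its member at 20774950 to 20775670 held 105, 127 and 57 reads on days 1, 3 and 7, and its member at 20778012 to 20778682 held 64, 90 and 59. At chromosome 5, the region at 153989679 to 153990522 held 128, 122, 114 and 110 reads on days 0, 1, 3 and 7, or 0.84 times its day 0 height on day 3 after scaling, while the member at 153986943 to 153987724 held 52, 83 and 55 reads on days 1, 3 and 7, and the one at 153987851 to 153988650 held 99, 144 and 66. At chromosome 15, the region at 63672935 to 63674539 held 133, 139, 138 and 118 reads, with members at 63670854 to 63671499 of 102, 116 and 80 reads and at 63671548 to 63672265 of 100, 101 and 72. The last pair lie on 1 side of their day 0 region, as do those on chromosome 5.

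**Figure D5:**
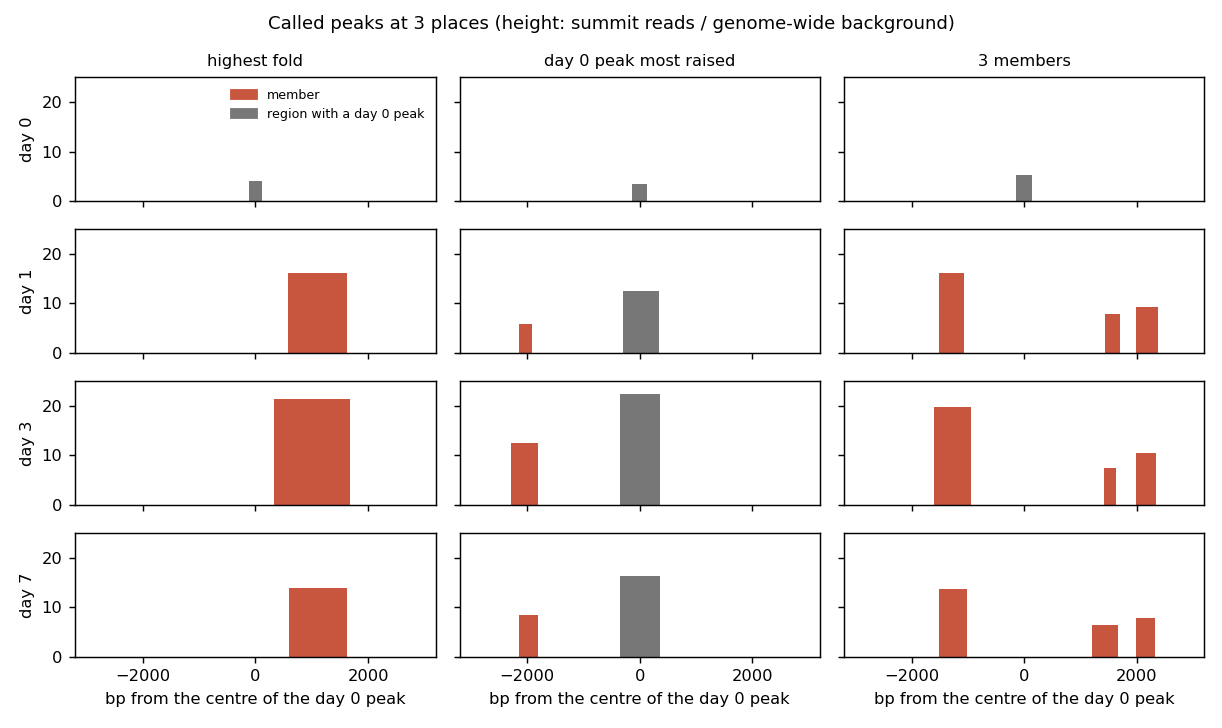
Called peaks on days 0, 1, 3 and 7 (rows) at 3 places, as bars from start to end in bp from the centre of the day 0 peak, with height the scaled summit; members are red and regions with a day 0 peak grey. At the left place a member reaches 21.4 on day 3 and the day 0 peak of 4.10 is absent from the later lists, in the middle the day 0 region itself reaches 22.3, and at the right 3 members surround a day 0 peak of 5.20.

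Members had other sustained gains near them less often than distant gains did. Another sustained gain lay within 2000 bp of 119 members (4.15%, 3.45 to 4.94), against 1521 distant gains (9.39%, 8.94 to 9.85). By the rule a day 0 peak lies within 2000 bp of each member, and induced peaks that overlap it cannot be sustained gains. This leaves less room for another sustained gain beside a member, and its part in the difference was not tested. The sequence of the members and the genes around them were not analysed here.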

How the data were processed

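The deposited file joins 4 peak lists in narrowPeak layout, 411408 peaks in all. The submitters' processing notes name Bowtie2, deepTools, MACS2 2.1.1.20160309 and hg19. The sources used here do not give read filters, any transposase offset, or whether replicates were pooled. Per the labels, a sample averaged 20 M reads. The deposited columns are the authors' score, their fold (a ratio of summit to local background), the significance as -log10 of the p-value and of the q-value, and the summit offset from the peak's start.

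Summit reads were recovered from the deposited fold and -log10 p, reading the fold as summit plus 1 over background plus 1 and p as a Poisson tail. Whole reads fitted every peak within 0.000863 in -log10 p. The genome-wide background is the most common value in a list (18.6% to 21.1% of peaks). All other backgrounds were multiples of 0.02 reads within 0.002, the step that whole reads extended by 200 bp give in a window of 10000 bp. Tested on simulated data, the recovery returned the reads of 100% of 19979 peaks, and lists and gaps were returned for 100% of 3000 regions.

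A region's value on a day is its highest summit. A neighbour is the merged region of the nearest day 0 peak. Gaps run to the day 0 peak itself, which can be shorter than its merged region. Shares have Clopper-Pearson intervals, and ratios of reads have exact conditional binomial intervals. They cover counting error only, treat regions as independent, and take reads as separate molecules. No p-value was computed.

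The members and all lists were chosen with earlier results of these data known. Named regions are the 10 members with the highest lowest-of-3 fold, the 5 with the smallest gap, 3 on each side of the limit, the 5 with the highest day 3 to day 0 ratio of the neighbour and the 5 day 0 regions with most members. Regions on chromosome 8 were counted but not named. Planned tests over the 8 samples could not be made, as the lists hold no counts per sample. AP-1 motifs and genes near members were not analysed here. Alternatives were other limits on q, fold, overlap and distance, summit distances, the fold scale, and centring on shared regions. Splits by height were added after seeing the data. Python 3.11.15, NumPy 2.4.6, pandas 2.3.3, SciPy 1.17.1 and matplotlib 3.10.9 were used.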

Additional observations from a re-analysis of the deposited data

How the results depend on the processing

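No paired analysis was possible because the file holds 1 list per day and no value per replicate, and leaving out each replicate was not possible for the same reason. No result here has a replicate error, and low summits under the call limit are not in the lists. A -log10 q of at least 3, or an overlap of at least 50% of the shorter peak, moved none of the 7 results (number, share and height of members; share highest on day 3; change, 2-fold share and keeping of neighbours) beyond its interval, or the number by over 1.5 times. A -log10 q of at least 5 gave 12.7% of sustained gains as members, a day 3 median scaled summit of 10.1 and 72.8% of neighbours kept. A fold of at least 4 in the induced lists left 339 members (5.85%), 74.6% of them highest on day 3, with a median of 12.0. It gave neighbours a median log2 change of 0.23, 9.57% at least 2-fold higher and 21.5% kept, against 42.7% of other day 0 regions, since weak induced peaks are removed. A limit of 1000 bp gave 1491 members (7.82%), 45.9% highest on day 3 and a median of 8.77. A limit of 5000 bp gave 6020 members (31.6%), with 51.5% highest on day 3. Distances between summits gave 11.2%, 46.5% highest on day 3, a median of 8.62 and 67.8% of neighbours kept. The fold in place of the scaled summit gave a day 3 median of 3.31 and turned the sign of the neighbours' median log2 change, to -0.018, -0.086 and -0.043 on days 1, 3 and 7, with 1.13% at least 2 times higher on day 3. Centring on regions in all lists gave 66.3% highest on day 3, a median of 9.62, a neighbour change of 0.12 and 9.42% at least 2-fold higher. By definition the distance limit sets the number and share of members, the fold is in another unit, and centring rescales each list by a constant. For the other differences under these settings and the limits on q, the cause was not tested. Splits added after seeing the data gave 22.5%, 0.945% and 0% of neighbours at least 2-fold higher on day 3 in the lowest, the third and the highest of 4 classes of day 0 height, with 41.0%, 89.4% and 99.5% kept. In 3 classes of mean height, 36.3%, 52.5% and 50.4% of members were highest on day 3, low to high.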

Other observations

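Among the distant gains, a second band of distances to the nearest day 0 peak was more frequent than those on either side of it. There were 225 sustained gains between 4000 and 4250 bp, 330 between 4750 and 5000 bp, 308 between 5000 and 5250 bp and 220 between 5500 and 5750 bp. All regions without a day 0 peak had the same band, with 774, 1110, 1062 and 903 regions at these distances. So did the gaps between consecutive day 0 peaks themselves, with 806, 1159, 1137 and 1006. The median local background of the sustained gains on day 3 was lower along these distances, at 2.21, 1.80, 1.75 and 1.58 times the genome-wide background. Members lay at 2.26 to 2.59 times over their 250 bp bands. The local background fitted a window of 10000 bp, which reaches 5000 bp to either side, the distance at which the band lies. The part of this window in the band was not tested.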
